A study of Mus musculus with 18 samples.

Results

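The levels of 10 immediate early transcription factors were followed in mouse ovaries that lacked or carried a working copy of Pik3cd: Fos, Fosb, Jun, Junb, Jund and Atf3, which form AP-1 complexes, the zinc finger factors Egr1 and Egr2, the orphan nuclear receptor Nr4a1, and Ier2. They were chosen by name and make up 10 of the 18193 genes for which the arrays hold a probe set annotated to that gene alone. The 10 genes have 13 such probe sets, since Jun, Egr2 and Jund have 2 each, and the probe set with the highest mean signal over all arrays stood for its gene. Of the 10, 9 passed the filter on low signal, and Fosb did not.

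Affymetrix arrays read total RNA of whole ovaries in 18 samples, 3 biological repeats for each of 6 groups, all from females of the C57B6J/S129 background that were 21 days old at the start. The groups were Pik3cd-/- and Pik3cd+/- ovaries taken 44 hours after a single injection of 10 IU PMSG, Pik3cd-/- and Pik3cd+/- ovaries taken 72 hours after the start of 3 injections of 0.03 ml E2 at intervals of 24 hours, and untreated Pik3cd-/- and Pik3cd+/- ovaries. Pik3cd encodes the p110-delta catalytic subunit of phosphoinositide 3-kinase, PMSG is a gonadotropin that acts mainly like FSH, and E2 is oestradiol. The design asked which PMSG and E2 responses of the heterozygous ovary are altered without Pik3cd. Every control ovary carried 1 disrupted copy of Pik3cd, so no wild-type ovary was measured, and no group was injected with vehicle, so a treatment difference holds the injection and the hours that passed as well. The E2 concentration, and whether an array holds RNA of a single mouse, are not given in the sources used here. If repeats shared animals or extractions, the p-values would measure only the spread between these arrays.

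Immediate early genes are transcribed soon after a stimulus without new protein synthesis, through kinases such as ERK and PKA that act on factors already bound at their promoters, among them SRF with its ELK partners and CREB. FOS proteins bind DNA only as partners of JUN proteins, whereas JUN proteins can also pair among themselves. In granulosa cells of growing follicles, gonadotropins are known to raise several of these genes for a short time after the hormone arrives, and the ovaries here were taken long after that first wave. In whole ovaries, fewer cells of a type and less RNA per cell cannot be told apart.

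Promoter windows from RefSeq (GRCm38.p6, 250 bases before to 50 after an annotated gene start) were found for 8 of the 10 genes. The 4 shown belong to the 3 factors that were lower in Pik3cd-/- ovaries after PMSG and to Nr4a1, the factor that was higher after PMSG in Pik3cd-/- ovaries. Capitals mark TGACG on either strand, the core of the cyclic AMP response element that CREB and ATF proteins bind, and the CArG box that SRF binds. The Fos window lies at chr12:85473640-85473939 on the plus strand, that of Junb at chr8:84978699-84978998 on the minus strand, that of Egr2 at chr10:67537619-67537918 on the plus strand and that of Nr4a1 at chr15:101266596-101266895 on the plus strand.
Fos: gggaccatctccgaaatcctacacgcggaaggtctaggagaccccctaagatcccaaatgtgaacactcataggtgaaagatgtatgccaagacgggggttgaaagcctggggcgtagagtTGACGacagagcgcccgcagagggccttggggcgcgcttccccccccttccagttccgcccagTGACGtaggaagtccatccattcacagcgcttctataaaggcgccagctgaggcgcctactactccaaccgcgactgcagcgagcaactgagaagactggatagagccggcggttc
Junb: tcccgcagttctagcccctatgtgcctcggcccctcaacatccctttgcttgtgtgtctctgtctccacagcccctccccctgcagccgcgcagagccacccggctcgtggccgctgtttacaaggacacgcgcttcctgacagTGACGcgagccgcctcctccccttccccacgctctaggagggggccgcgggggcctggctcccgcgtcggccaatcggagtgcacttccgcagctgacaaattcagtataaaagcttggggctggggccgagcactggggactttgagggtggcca
Egr2: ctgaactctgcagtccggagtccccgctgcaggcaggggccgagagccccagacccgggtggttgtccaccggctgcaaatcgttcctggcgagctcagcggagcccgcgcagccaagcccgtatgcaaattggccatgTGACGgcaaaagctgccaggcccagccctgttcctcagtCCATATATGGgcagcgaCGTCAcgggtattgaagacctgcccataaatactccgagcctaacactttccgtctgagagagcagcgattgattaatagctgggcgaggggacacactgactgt
Nr4a1: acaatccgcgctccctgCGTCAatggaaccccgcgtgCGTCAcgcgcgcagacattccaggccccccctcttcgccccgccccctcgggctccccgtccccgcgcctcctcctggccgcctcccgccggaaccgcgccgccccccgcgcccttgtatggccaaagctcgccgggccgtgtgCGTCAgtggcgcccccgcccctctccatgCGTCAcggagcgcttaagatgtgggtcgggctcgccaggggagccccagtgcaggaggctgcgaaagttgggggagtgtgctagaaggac
The core TGACG stood in the windows of 6 of the 8 genes (Fos, Fosb, Junb, Egr2, Nr4a1 and Atf3), and 23.0% of the 27025 mouse genes with a window had it. The Nr4a1 window held it 4 times, those of Fos and Egr2 held it 2 times each, and that of Junb held it once. The printed Egr2 window was chosen as the first of 5 that held both a CArG box and the core. Its CArG box began 72 bases before the start, with a core on either side. The Egr2 window that begins at chr10:67537316 held another CArG box and no core, and that at chr10:67535249 held neither. A CArG box was found for Egr2 alone of the 8 genes, and 1.81% of all genes had one. The full element TGACGTCA, which contains the core, was in none of the 8 and in 2.03% of all genes, and the AP-1 site TGANTCA was in none of the 8 and in 8.97% of all genes. Counts are per gene, over 12 windows in all, and Egr2 has 5 of them. The EGR site GCGNGGGCG was in the windows of Fosb and Nr4a1, the GC box GGGCGG, which can overlap it, in 6 of 8, and TATAAA in those of Fos and Junb. All genes had these in 6.27%, 38.2% and 15.7% of cases. Both strands were searched, and these letter matches are descriptions of the windows.

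**Figure D1:**
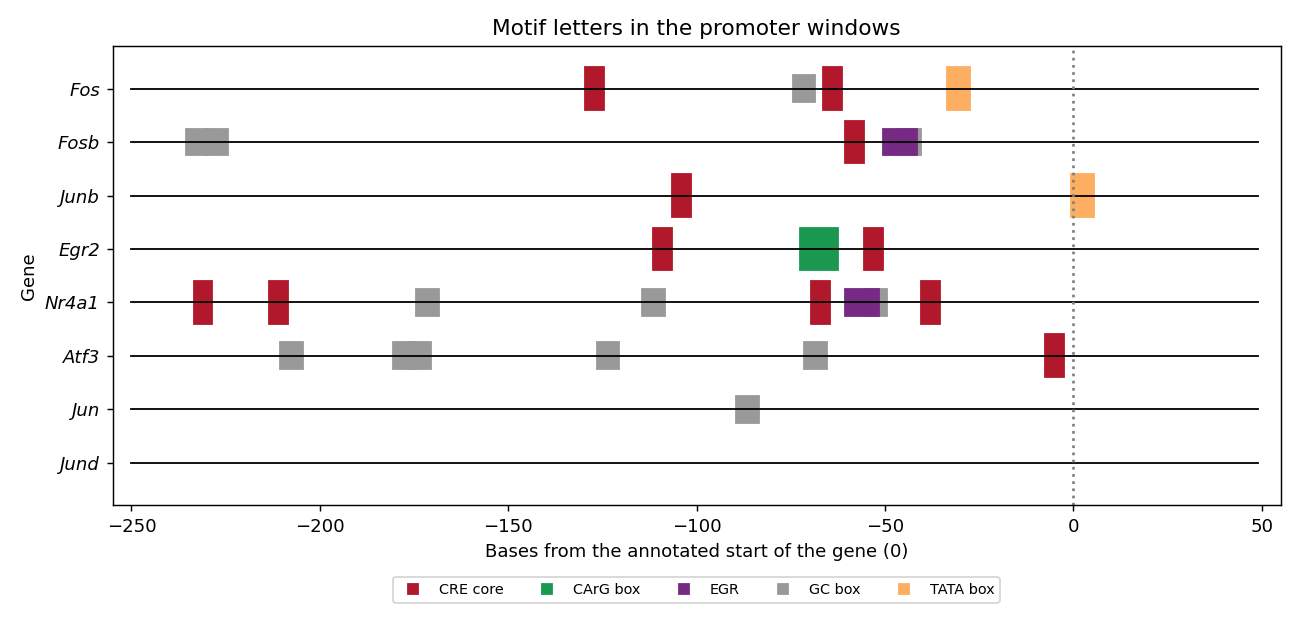
Places of the motif letters in the promoter windows of 8 genes, with a gene in each row. The x axis gives the distance from the annotated start in bases. For Egr2, which has 5 annotated starts, the window printed above is drawn, chosen for holding both a CArG box and a TGACG core. TGACG cores lie upstream of the start in 6 genes, and the Egr2 window alone has a CArG box.

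Before the factors, the arrays were checked against their labels. Pik3cd itself separated the genotypes on the probe set with the clearest difference, at 19.1 to 28.8 in 9 Pik3cd-/- arrays and 61.4 to 73.1 in 9 Pik3cd+/- arrays, whereas its brightest probe set, at 2949 to 3945 and 2329 to 4833, did not. Ovary genes were present throughout, with Foxl2 of granulosa cells at 2168 or more and Gdf9 of oocytes at 2525 or more on every array. The median signal per array ran from 48.4 to 50.9, and the 3′ to 5′ ratios of the control probe sets were 0.768 to 0.908 for Gapdh and 1.27 to 1.53 for Actb. They separated the genotypes in 2 places, with Gapdh at 0.768 to 0.821 in Pik3cd-/- and 0.830 to 0.908 in Pik3cd+/- ovaries after E2, and Actb at 1.36 to 1.44 in Pik3cd-/- and 1.32 to 1.35 in Pik3cd+/- untreated ovaries, and their part in the genotype differences of the factors was not tested. The 3 arrays that were left out together as standing apart were Pik3cd-/- E2 replicate 2, whose 3 adipocyte markers summed to 71.6 and whose 12 macrophage markers were the lowest of all at 1546, and Pik3cd+/- PMSG replicate 1 and untreated Pik3cd+/- replicate 2, whose 6 oviduct markers were the highest at 4804 and 2167. Counts are given with and without these 3 arrays. Pik3cd-/- E2 replicate 3 also differed from its group mates, with the highest macrophage (7184) and adipocyte (10163) sums of all arrays and an oocyte sum of 14915 against 26369 and 27355. It was kept in that fit, and without it alone the factor counts were 0 for E2 in Pik3cd-/- ovaries and 5 between the genotypes after E2, as with it.

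Taken over both hormones, the factors were mostly higher in treated than in untreated Pik3cd+/- ovaries, and their median change was smaller in Pik3cd-/- ovaries. This did not hold for each factor. With E2, Egr1 changed by -0.64 in Pik3cd-/- and by -0.13 in Pik3cd+/- ovaries (limma, adjusted p = 0.252 and 0.825). No factor's response was shown to differ between the genotypes. A gene was called where limma's moderated test on log2 signal gave an adjusted p under 0.05 over all 12713 genes tested. After PMSG in Pik3cd-/- ovaries, Nr4a1 was called higher, 1 of 9 factors, where 1.71% of all tested genes were called higher. After PMSG in Pik3cd+/- ovaries, Fos, Jun, Junb, Egr2, Nr4a1, Atf3 and Ier2 were called higher, 7 of 9, where 5.81% of all genes were. After E2 in Pik3cd-/- ovaries 0 of 9 were called by limma, and 0.00787% of all genes were called higher. An unadjusted limma p under 0.05 was reached there by 4 factors, with Fos, Nr4a1 and Atf3 higher and Egr1 lower. Of all 12713 genes, 1862 reached that level in either direction. After E2 in Pik3cd+/- ovaries, Jun, Nr4a1 and Atf3 were called higher, 3 of 9, where 1.18% of all genes were. The median log2 change of the 9 factors was 0.30 and 0.49 after PMSG in Pik3cd-/- and Pik3cd+/- ovaries, and 0.17 and 0.40 after E2, whereas the medians over all genes were -0.01, -0.05, -0.05 and 0.00. Without the 3 arrays that stood apart, the 4 counts were 0, 4, 0 and 1. In that fit 193, 295, 1 and 68 of 12731 genes were called higher, against 217, 739, 1 and 150 of 12713 with all arrays.

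Between the genotypes, the called factors were all lower in Pik3cd-/- ovaries, and Fos was among them in every state. After PMSG, Fos, Junb and Egr2 were lower in Pik3cd-/- ovaries, 3 of 9, where 1.05% of all genes were called lower. After E2, Fos, Jun, Junb, Egr1 and Egr2 were lower, 5 of 9, where 12% of all genes were. Of all genes called after E2, 1524 of 2141 were lower in Pik3cd-/- ovaries, and 1003 of 1789 after quantile normalization, under which the same number of factors, 5, was called. In untreated ovaries Fos was lower, 1 of 9, where 1.34% of all genes were. The median log2 difference of the 9 factors was -0.55 after PMSG, -0.39 after E2 and -0.20 in untreated ovaries, and that of all genes was 0.01, -0.07 and -0.01. Without the 3 arrays that stood apart the counts were 1, 3 and 0. In that fit 25, 422 and 0 of 12731 genes were called lower, against 133, 1524 and 170 of 12713 with all arrays. Same-numbered PMSG arrays of the genotypes deviated together, and with the replicate number as a block in a fit of these 6 arrays, 6 factors were called lower after PMSG, with Jun (adjusted p = 0.0129), Egr1 (0.0285) and Nr4a1 (0.0382) added to Fos (0.0010), Junb (0.0166) and Egr2 (0.0168). In that fit 319 of 12431 genes were called lower, or 2.57%. A fit of the same 6 arrays without the block called 4 factors lower. They were Fos, Jun (adjusted p = 0.0134), Junb and Nr4a1 (0.0305), so the Jun and Nr4a1 calls did not rest on the block. There 250 of 12431 genes were called lower.

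The filter bears on these counts. Egr2 passed it through 1 group alone, the Pik3cd+/- ovaries after PMSG, and Atf3 through the 4 treated groups, so that each had to be brighter there. Among the 7 factors above the filter in all 6 groups, 5 were called higher after PMSG and 2 after E2 in Pik3cd+/- ovaries, and 2 were lower in Pik3cd-/- ovaries after PMSG and 4 after E2. Over all 12713 tested genes the shares were 5.81% and 1.18% higher, and 1.05% and 12% lower. The share among genes above the filter in all 6 groups was not computed, so these counts have no matching share. The treatment comparisons of a genotype share their untreated arrays, and each treated group is also used in a genotype comparison.

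The interaction of treatment and genotype, which tests whether the response itself differed, gave 0 calls by limma for either hormone (0.0% of 12713 genes), with 1194 genes at an unadjusted p under 0.05 for PMSG and 924 for E2. Without Pik3cd-/- E2 replicate 3 the E2 interaction had 71 calls among all genes, and none of them was a factor. Of the factors, 3 reached that unadjusted level for PMSG and 1 for E2. The PMSG response of Jun was lower by -0.55 ± 0.22 (SE) in Pik3cd-/- ovaries on the log2 scale (adjusted p = 0.452), that of Junb by -0.45 ± 0.17 (adjusted p = 0.432), and that of Jund was higher by 0.37 ± 0.12 (adjusted p = 0.393). For E2, the Jun response differed by -0.78 ± 0.22 (adjusted p = 0.509). The differences in response between the genotypes were thus not established for any factor.

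**Figure D2:**
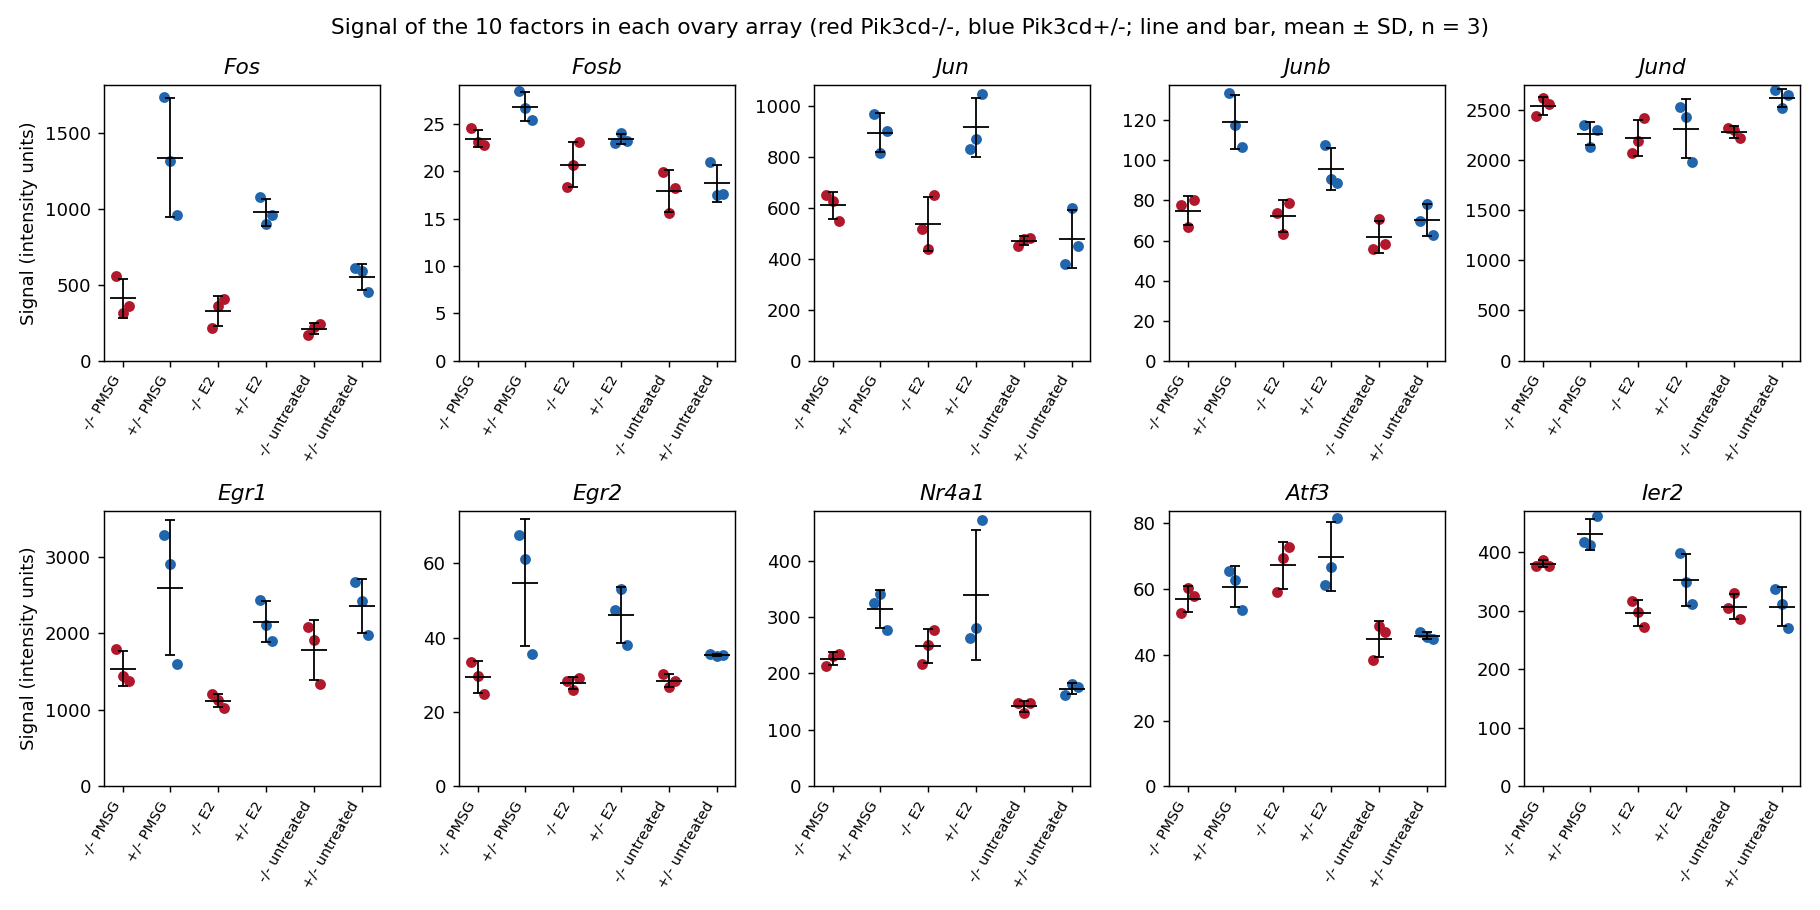
Signal of each of the 10 factors in every array (linear intensity on the y axis, 1 point per array, line and bar the mean and SD of 3 arrays), with Pik3cd-/- in red to the left of Pik3cd+/- in blue. Fos is lower in all 3 Pik3cd-/- arrays of each state than in the 3 Pik3cd+/- arrays of that state.

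Fos, the inducible FOS partner of AP-1, gave the largest genotype difference of the 9 factors tested in all 3 states. After PMSG its signals were 556, 315 and 362 in Pik3cd-/- ovaries, against 1737, 1318 and 957 in Pik3cd+/- ovaries. After E2 they were 214, 363 and 405 in Pik3cd-/- ovaries, against 1075, 897 and 960.5 in Pik3cd+/- ovaries. Untreated Pik3cd-/- ovaries had 168, 221 and 241, and untreated Pik3cd+/- ovaries 611, 592 and 455. In each state the highest Pik3cd-/- array stayed below the lowest Pik3cd+/- array, and the mean of Pik3cd-/- ovaries after PMSG (411 ± 128, SD, n = 3) lay below that of untreated Pik3cd+/- ovaries (553 ± 85.1), though single arrays of those groups overlapped. The Pik3cd-/- to Pik3cd+/- ratio of mean signals was 0.307 after PMSG, 0.335 after E2 and 0.380 in untreated ovaries. On the log2 scale the differences were -1.68 ± 0.25 (SE; adjusted p = 0.00311), -1.60 ± 0.25 (adjusted p = 0.00199) and -1.37 ± 0.25 (adjusted p = 0.0248).

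Of the 4 treatment comparisons of Fos, only PMSG in Pik3cd+/- ovaries passed the test in the fit of all 6 groups. PMSG over untreated gave a log2 change of 0.91 ± 0.25 in Pik3cd-/- ovaries (adjusted p = 0.0689) and of 1.23 ± 0.25 in Pik3cd+/- ovaries (adjusted p = 0.00565), with all treated arrays above all untreated arrays in either case. E2 over untreated gave 0.59 ± 0.25 in Pik3cd-/- ovaries (adjusted p = 0.313), where arrays overlapped, and 0.82 ± 0.25 in Pik3cd+/- ovaries (adjusted p = 0.109), where they did not. In a fit of the E2 and untreated Pik3cd+/- groups alone, this Pik3cd+/- change was called (adjusted p = 0.0115). The interaction was -0.32 ± 0.36 for PMSG (adjusted p = 0.806) and -0.23 ± 0.36 for E2 (adjusted p = 0.873). The call in untreated ovaries was lost without the 3 arrays that stood apart (adjusted p = 0.0848), and without Pik3cd+/- replicate 1 (adjusted p = 0.0959), Pik3cd+/- replicate 2 (0.0796) or Pik3cd-/- replicate 2 (0.0830), whereas those after PMSG and after E2 held with any array left out. Without the 3 arrays that stood apart, the PMSG call in Pik3cd+/- ovaries had an adjusted p of 0.0567.

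**Figure D3:**
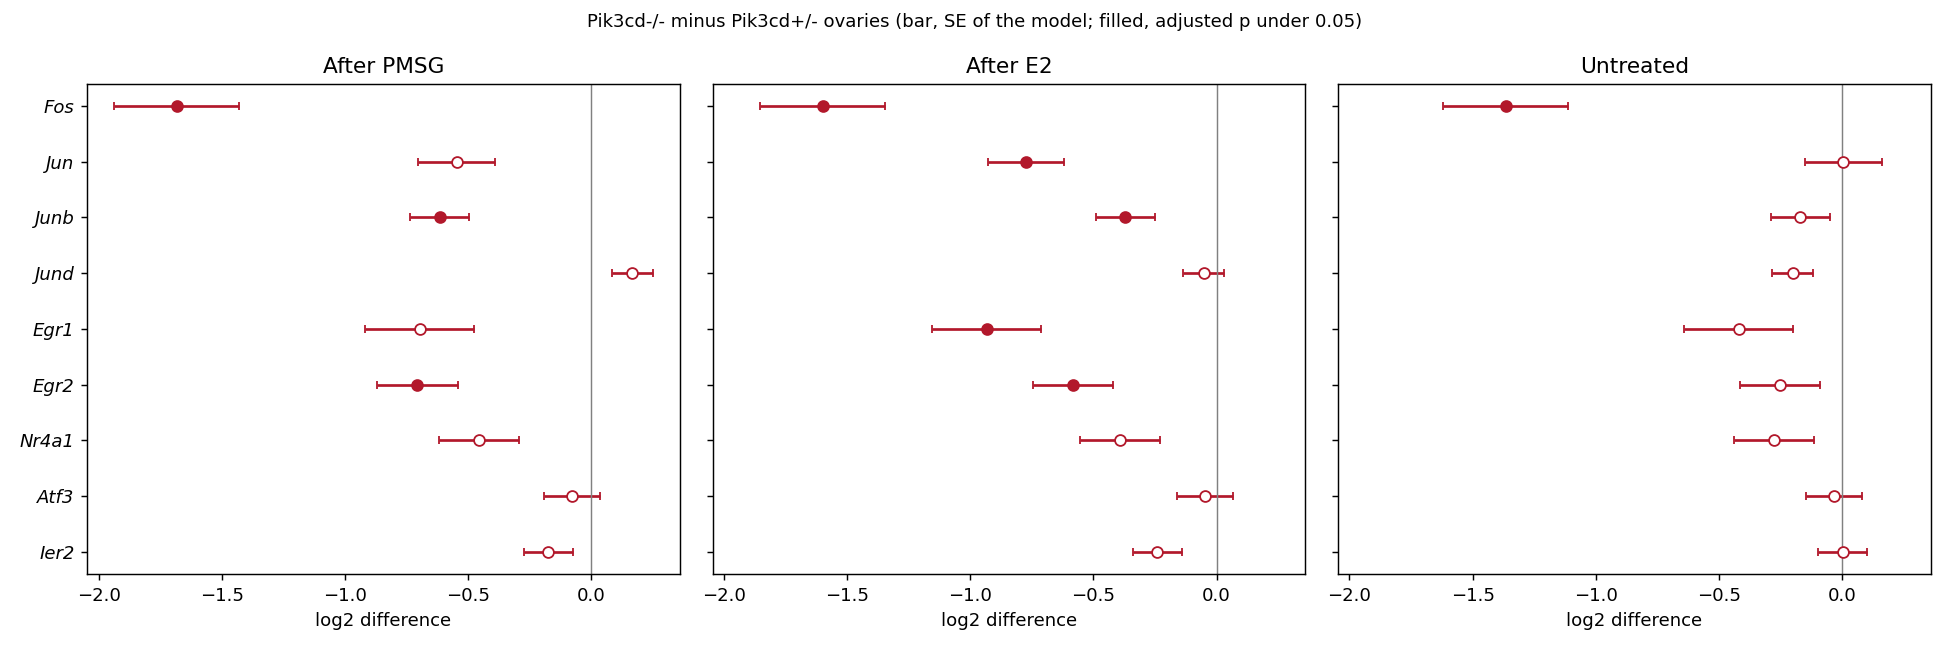
Pik3cd-/- minus Pik3cd+/- difference of the 9 tested factors (log2 units on the x axis; bar, SE of the model; filled points, adjusted p under 0.05) after PMSG, after E2 and in untreated ovaries. Fos lies farthest to the left in every panel, and Atf3 lies between -0.08 and -0.03.

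Fosb, a FOS relative with the same need for a JUN partner, was dim on its only probe set. Its signals were 24.5, 23.1 and 22.8 in Pik3cd-/- and 28.5, 26.7 and 25.4 in Pik3cd+/- ovaries after PMSG, and 18.4, 20.6 and 23.1 in Pik3cd-/- and 23.0, 24.0 and 23.2 in Pik3cd+/- ovaries after E2. Without treatment, Pik3cd-/- ovaries had 19.9, 15.5 and 18.3, and untreated Pik3cd+/- ovaries 21.0, 17.5 and 17.6. Treated arrays were mostly brighter than untreated ones, and all lay below the median signal of the arrays. A fit of all probe sets without the filter gave a log2 change of 0.38 ± 0.07 for PMSG in Pik3cd+/- ovaries (adjusted p = 0.00676) and 0.28 ± 0.07 in Pik3cd-/- ovaries (adjusted p = 0.0915), with genotype differences of -0.14 after PMSG (adjusted p = 0.457) and -0.13 after E2 (adjusted p = 0.284).

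Jun, the founding JUN protein of AP-1, was at like levels in untreated ovaries of the genotypes. In treated ovaries its Pik3cd-/- arrays lay below its Pik3cd+/- arrays. In the fit of all 6 groups this difference was called only after E2, and neither interaction was called. After PMSG its signals were 652, 626 and 549 in Pik3cd-/- ovaries, against 966, 813 and 900.1 in Pik3cd+/- ovaries. With E2 they were 516, 439 and 651 in Pik3cd-/- ovaries, against 829.5, 869 and 1047 in Pik3cd+/- ovaries. The untreated Pik3cd-/- arrays had 449.7, 477 and 482, and untreated Pik3cd+/- ovaries 378, 599 and 451, so these groups overlapped while the treated ones did not. The genotype difference was -0.55 ± 0.16 after PMSG (adjusted p = 0.0595), -0.77 ± 0.16 after E2 (adjusted p = 0.00658) and 0.01 ± 0.16 in untreated ovaries (adjusted p = 0.987).

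In Pik3cd+/- ovaries Jun was higher by 0.92 ± 0.16 after PMSG (adjusted p = 0.00207) and by 0.95 ± 0.16 after E2 (adjusted p = 0.00905). The same changes in Pik3cd-/- ovaries were 0.37 ± 0.16 (adjusted p = 0.217) and 0.17 ± 0.16 (adjusted p = 0.604). The other Jun probe set, about as clear at 241 to 516 in the treated arrays, gave 0.66 after PMSG (adjusted p = 0.00620) and 0.87 after E2 (adjusted p = 0.00844) in Pik3cd+/- ovaries, and a genotype difference of -0.71 after E2 (adjusted p = 0.00565) and of -0.46 after PMSG (adjusted p = 0.0952). The Jun calls in Pik3cd+/- ovaries and after E2 held with any array left out, and the one after E2 was lost in a fit of the E2 groups alone (adjusted p = 0.0660).

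Junb, a JUN protein that activates transcription less strongly than JUN at many sites, was highest in Pik3cd+/- ovaries after PMSG. Its signals were 77.7, 66.6 and 80.3 in Pik3cd-/- and 134, 118 and 107 in Pik3cd+/- ovaries after PMSG. After E2 they were 74.0, 63.4 and 78.9 in Pik3cd-/- ovaries, against 108, 90.8 and 88.6 in Pik3cd+/- ovaries. Untreated Pik3cd-/- ovaries had 55.8, 70.7 and 58.2, and untreated Pik3cd+/- ovaries 69.6, 78.3 and 62.7. Both treated pairs of groups were apart and the untreated pair overlapped. The genotype difference was -0.62 ± 0.12 after PMSG (adjusted p = 0.0113), -0.37 ± 0.12 after E2 (adjusted p = 0.0460) and -0.17 ± 0.12 in untreated ovaries (adjusted p = 0.449). PMSG gave 0.25 ± 0.12 in Pik3cd-/- ovaries (adjusted p = 0.267) and 0.70 ± 0.12 in Pik3cd+/- ovaries (adjusted p = 0.00221), and E2 gave 0.20 (adjusted p = 0.428) and 0.40 (adjusted p = 0.0975). The call after PMSG was lost without Pik3cd+/- replicate 1 or Pik3cd-/- replicate 2 (adjusted p up to 0.0854), and without the 3 arrays that stood apart (0.0628). That after E2 was lost without replicate 1 or 2 of either genotype (adjusted p up to 0.186), without the filter, in a fit of the E2 groups alone, with the replicate block and without the 3 arrays that stood apart (adjusted p up to 0.154).

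Jund, the JUN protein that many resting cells keep at a steady level, was not called in any comparison. Its signals were 2443, 2620.0 and 2553 in Pik3cd-/- and 2352, 2130.2 and 2298 in Pik3cd+/- ovaries after PMSG, and 2065, 2187 and 2417 in Pik3cd-/- and 2530.2, 2431 and 1978 in Pik3cd+/- ovaries after E2. Without treatment, Pik3cd-/- ovaries had 2322, 2302 and 2214, and untreated Pik3cd+/- ovaries 2696, 2518 and 2645. The genotypes did not overlap after PMSG or untreated, in opposite directions, and overlapped after E2. The PMSG change was 0.15 ± 0.08 in Pik3cd-/- ovaries (adjusted p = 0.320) and -0.21 ± 0.08 in Pik3cd+/- ovaries (adjusted p = 0.0842), and the value in Pik3cd+/- ovaries was called after quantile normalization (adjusted p = 0.0383) and in a fit of those groups alone (adjusted p = 0.0431). Between the genotypes it was 0.17 ± 0.08 after PMSG (adjusted p = 0.305), -0.05 ± 0.08 after E2 (adjusted p = 0.680) and -0.20 ± 0.08 in untreated ovaries (adjusted p = 0.186). The other Jund probe set was dim, at 14.9 to 26.2, with no call.

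Atf3, a stress-inducible partner of JUN proteins that often represses, was called higher after each hormone in Pik3cd+/- ovaries and did not differ detectably with genotype. It passed the filter through the 4 treated groups alone, where it had to be brighter, so the treatment calls are not independent of the filter. Without the filter the PMSG call was lost (adjusted p = 0.0577) and the E2 call was kept. Its signals were 52.6, 60.3 and 57.7 in Pik3cd-/- and 65.5, 62.8 and 53.6 in Pik3cd+/- ovaries after PMSG, and 59.2, 69.6 and 72.7 in Pik3cd-/- and 61.1, 66.8 and 81.7 in Pik3cd+/- ovaries after E2. The untreated Pik3cd-/- arrays had 38.4, 48.8 and 47.0, and untreated Pik3cd+/- ovaries 47.1, 45.5 and 44.9, below all treated arrays. PMSG gave 0.30 ± 0.11 in Pik3cd-/- ovaries (adjusted p = 0.176) and 0.34 ± 0.11 in Pik3cd+/- ovaries (adjusted p = 0.0479), and E2 gave 0.51 ± 0.11 (adjusted p = 0.150) and 0.52 ± 0.11 (adjusted p = 0.0332). Genotype differences were -0.08 ± 0.11 after PMSG, -0.05 ± 0.11 after E2 and -0.03 ± 0.11 in untreated ovaries (adjusted p 0.785 to 0.899). Of the 6 arrays behind each call, the PMSG call was lost on leaving out any untreated Pik3cd+/- array or Pik3cd+/- PMSG replicate 1 or 2 (adjusted p up to 0.157) and under 6 of 9 other settings (up to 0.268). The E2 call was lost without any untreated Pik3cd+/- array or Pik3cd+/- E2 replicate 2 or 3 (up to 0.134), and without the 3 arrays that stood apart (0.101).

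**Figure D4:**
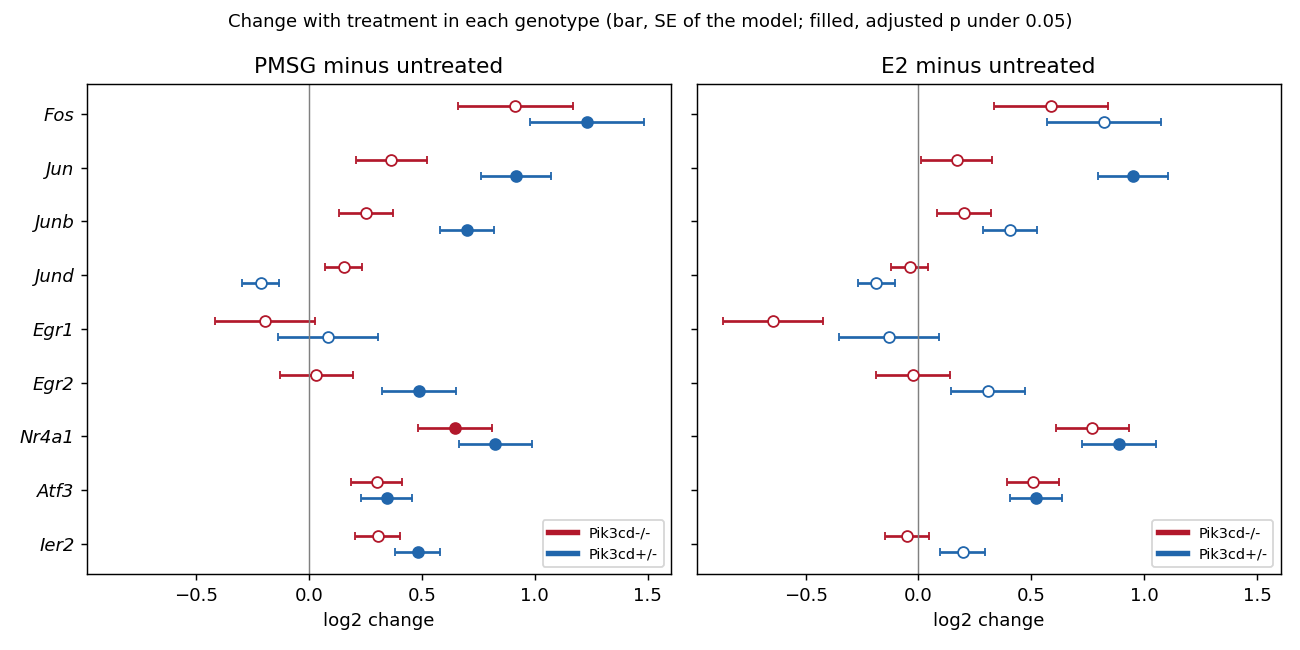
Change of the 9 tested factors after PMSG (left) and after E2 (right) against untreated ovaries of the same genotype (log2 units on the x axis; bar, SE of the model; filled points, adjusted p under 0.05), with Pik3cd-/- in red above Pik3cd+/- in blue. The 7 filled blue points of the left panel stand beside 1 filled red point, Nr4a1, and the genotype bars of Fos, Atf3 and Nr4a1 overlap in both panels. The interaction of treatment and genotype was not called for any factor.

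Egr1, a zinc finger factor of early responses, did not change detectably with either hormone in Pik3cd+/- ovaries. Its signals were 1798, 1437 and 1381 in Pik3cd-/- and 3285, 2903 and 1600.1 in Pik3cd+/- ovaries after PMSG, with replicate 3 of the Pik3cd+/- ovaries within the range of the Pik3cd-/- arrays. With E2 they were 1203, 1124 and 1029 in Pik3cd-/- ovaries, against 2435, 2111 and 1905 in Pik3cd+/- ovaries, with no overlap. Untreated Pik3cd-/- ovaries had 2083, 1917 and 1337, and untreated Pik3cd+/- ovaries 2675, 2425 and 1975. The genotype difference was -0.70 ± 0.22 after PMSG (adjusted p = 0.0919), -0.93 ± 0.22 after E2 (adjusted p = 0.0136) and -0.42 ± 0.22 in untreated ovaries (adjusted p = 0.299). Without Pik3cd+/- replicate 3 the PMSG difference was -1.01 (adjusted p = 0.0117), and with the replicate block over all groups its adjusted p was 0.0121. Without Pik3cd+/- replicate 1 the call after E2 was lost (adjusted p = 0.0602). The treatment changes of Egr1 were -0.19 ± 0.22 and 0.08 ± 0.22 after PMSG in Pik3cd-/- and Pik3cd+/- ovaries (adjusted p = 0.669 and 0.826), and -0.64 ± 0.22 and -0.13 ± 0.22 after E2 (adjusted p = 0.252 and 0.825).

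Egr2, a relative of Egr1 with the same kind of zinc fingers, was dim and varied most in Pik3cd+/- ovaries after PMSG. Its signals were 33.6, 29.8 and 24.9 in Pik3cd-/- and 67.7, 61.3 and 35.5 in Pik3cd+/- ovaries after PMSG, where replicate 3 was again the lowest. After E2 they were 28.2, 25.9 and 29.3 in Pik3cd-/- ovaries, against 47.5, 53.1 and 38.1 in Pik3cd+/- ovaries. Without treatment, Pik3cd-/- ovaries had 30.2, 26.7 and 28.4, and untreated Pik3cd+/- ovaries 35.7, 35.2 and 35.3. In each state all Pik3cd-/- arrays were below all Pik3cd+/- arrays. The genotype difference was -0.71 ± 0.16 after PMSG (adjusted p = 0.0267), -0.58 ± 0.16 after E2 (adjusted p = 0.0263) and -0.25 ± 0.16 in untreated ovaries (adjusted p = 0.407). PMSG gave 0.03 ± 0.16 in Pik3cd-/- ovaries (adjusted p = 0.937) and 0.49 ± 0.16 in Pik3cd+/- ovaries (adjusted p = 0.0497), and E2 gave -0.02 ± 0.16 in Pik3cd-/- ovaries (adjusted p = 0.951) and 0.31 ± 0.16 in Pik3cd+/- ovaries (adjusted p = 0.357).

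The Egr2 calls rested on few arrays. The gene passed the filter through Pik3cd+/- ovaries after PMSG alone, so its calls that use this group are not independent of the filter. Without the filter the PMSG call in Pik3cd+/- ovaries was lost (adjusted p = 0.0549), and the genotype calls after PMSG and after E2 were kept. The other probe set gave -0.52 after PMSG between the genotypes (adjusted p = 0.0968) and 0.45 for PMSG in Pik3cd+/- ovaries (adjusted p = 0.0696), in the same directions and below the threshold. After E2 it gave -0.22 between the genotypes (adjusted p = 0.370), against -0.58 on the probe set that stood for the gene. Without Pik3cd+/- PMSG replicate 1 or 2 the gene fell below the filter. The genotype call after PMSG was lost without Pik3cd-/- replicate 2 or 3 (adjusted p up to 0.103) and in a fit of the PMSG groups alone (0.0872), that after E2 without replicate 1 or 2 of either genotype (up to 0.108), and the PMSG call in Pik3cd+/- ovaries on leaving out any untreated array (up to 0.126) and under 4 of 8 other settings (up to 0.118).

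Nr4a1, an orphan nuclear receptor of the steroid receptor superfamily, had higher signals in every treated array than in any untreated one. After PMSG its signals were 214, 230.4 and 235 in Pik3cd-/- ovaries, against 325, 341 and 276 in Pik3cd+/- ovaries. With E2 they were 217, 249.7 and 277 in Pik3cd-/- ovaries, against 264, 281 and 471 in Pik3cd+/- ovaries. The untreated Pik3cd-/- arrays had 147, 129.9 and 148, and untreated Pik3cd+/- ovaries 162, 181 and 176, below every treated array. PMSG gave 0.65 ± 0.16 in Pik3cd-/- ovaries (adjusted p = 0.0476) and 0.83 ± 0.16 in Pik3cd+/- ovaries (adjusted p = 0.00451), and E2 gave 0.77 ± 0.16 (adjusted p = 0.128) and 0.89 ± 0.16 (adjusted p = 0.0141). The genotype differences were -0.45 ± 0.16 after PMSG (adjusted p = 0.138), -0.39 ± 0.16 after E2 (adjusted p = 0.101) and -0.28 ± 0.16 in untreated ovaries (adjusted p = 0.356). The PMSG call in Pik3cd-/- ovaries was lost on leaving out any of its 6 arrays (adjusted p up to 0.168) and under 5 of 10 other settings (up to 0.0845). The E2 call was lost without untreated Pik3cd+/- replicate 1 or 3 (up to 0.0656) or without the 3 arrays that stood apart (0.0540), and the PMSG call in Pik3cd+/- ovaries held throughout.

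Ier2, a nuclear protein induced early by growth factors, was higher after PMSG in Pik3cd+/- ovaries. Its signals were 376, 387 and 377 in Pik3cd-/- and 417, 412 and 461 in Pik3cd+/- ovaries after PMSG, and 317, 298 and 272 in Pik3cd-/- and 398, 348 and 311 in Pik3cd+/- ovaries after E2. Untreated Pik3cd-/- ovaries had 304, 329 and 286, and untreated Pik3cd+/- ovaries 337, 311 and 271. PMSG arrays lay above untreated arrays in both genotypes, and E2 arrays overlapped them. PMSG gave 0.30 ± 0.10 in Pik3cd-/- ovaries (adjusted p = 0.119, and 0.0423 after quantile normalization) and 0.48 ± 0.10 in Pik3cd+/- ovaries (adjusted p = 0.00568), and the call in Pik3cd+/- ovaries held with any array left out. E2 gave -0.05 ± 0.10 (adjusted p = 0.819) and 0.20 ± 0.10 (adjusted p = 0.334). Genotype differences were -0.17 ± 0.10 after PMSG, -0.24 ± 0.10 after E2 and 0.00 ± 0.10 in untreated ovaries (adjusted p 0.101 to 0.986), and the one after E2 was called without Pik3cd+/- E2 replicate 3 (-0.33, adjusted p = 0.0406).

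In rising order of mean signal, Fos was at 209.8 ± 37.6 in untreated Pik3cd-/- ovaries, 327 ± 100.4 in Pik3cd-/- ovaries after E2 and 411 ± 128 in Pik3cd-/- ovaries after PMSG, then at 553 ± 85.1 in untreated Pik3cd+/- ovaries, 977 ± 90.2 in Pik3cd+/- ovaries after E2 and 1338 ± 391 in Pik3cd+/- ovaries after PMSG. Of neighbours in this order, only the E2-treated and untreated Pik3cd+/- groups had arrays that did not overlap. Pik3cd+/- ovaries after PMSG were also the brightest group for Fosb, Junb, Egr1, Egr2 and Ier2, and Pik3cd+/- ovaries after E2 for Jun, Nr4a1 and Atf3. Jund was brightest in untreated Pik3cd+/- ovaries. For Jun and Junb the top 2 groups were the treated Pik3cd+/- ovaries, whose arrays did not overlap with those of the next group. For Atf3 the order went by treatment, with both E2 groups above both PMSG groups and these above the untreated groups. Signals of different probe sets have no common scale, so the factors are not ordered against each other.

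Markers of oocytes moved with the genotype in the opposite direction to the factors. The 8 oocyte markers summed to 18428 to 21088 in Pik3cd-/- and 8312 to 9660.5 in Pik3cd+/- ovaries after PMSG, to 14915 to 27355 and 10648 to 12096 after E2, and to 23798 to 28671 and 16496 to 17607 in untreated ovaries. Of the 8, 7 were called higher in Pik3cd-/- than in Pik3cd+/- ovaries after PMSG, 8 after E2 and 3 untreated. Over all tested genes 3.08%, 4.85% and 0.834% were called higher there. In Pik3cd+/- ovaries 7 of the 8 were called lower after PMSG and 1 after E2, where 11.9% and 0.44% of all tested genes were. The 12 macrophage markers summed to 3582 to 4604 in Pik3cd-/- and 2906 to 5758 in Pik3cd+/- ovaries after PMSG, to 1546 to 7184 and 3206 to 3498 after E2, and to 2604 to 5314 and 2110 to 2412 untreated, and 4 were called higher after PMSG in Pik3cd+/- ovaries. None of the 12 was called between the genotypes by limma. The 5 theca and steroidogenic markers summed to 27895 to 33596 in Pik3cd-/- and 25706 to 35178 in Pik3cd+/- ovaries after PMSG, against 11679 to 16330 and 13576 to 15834 untreated. Of these, 3 were called higher after PMSG in Pik3cd-/- and 4 in Pik3cd+/- ovaries, with median log2 changes of 1.84 and 2.17, so after PMSG they moved with the factors called higher. After E2 they summed to 9540 to 10781 in Pik3cd-/- and 7525 to 13402 in Pik3cd+/- ovaries. Their median log2 changes with E2 were -0.38 and -0.76, opposite in direction to the factors called higher after E2. The part of these cells in the results on the factors was not tested.

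Heat shock genes, which like the immediate early genes can rise during tissue handling, were read on the same arrays. The 10 listed summed to 34101 to 34753 in Pik3cd-/- and 34783 to 37663 in Pik3cd+/- ovaries after PMSG, to 30639 to 34600.1 and 30213 to 30964 after E2, and to 30045 to 39333 and 34476 to 37919 untreated. None of the 10 was called between the genotypes in any state. After PMSG in Pik3cd+/- ovaries, Hspa1a (0.53, adjusted p = 0.0244) and Hspa1b (0.90, adjusted p = 0.0437), the inducible HSP70 genes, were higher, and Hsp90aa1 (-0.37) and Hsph1 (-0.72) were lower. After E2, Hsp90aa1 was lower in Pik3cd-/- (-0.51, adjusted p = 0.0345) and in Pik3cd+/- ovaries (-0.57, adjusted p = 0.00486), and Hsph1 in Pik3cd+/- ovaries (-0.79, adjusted p = 0.0351). Their part in the results was not tested.

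**Figure D5:**
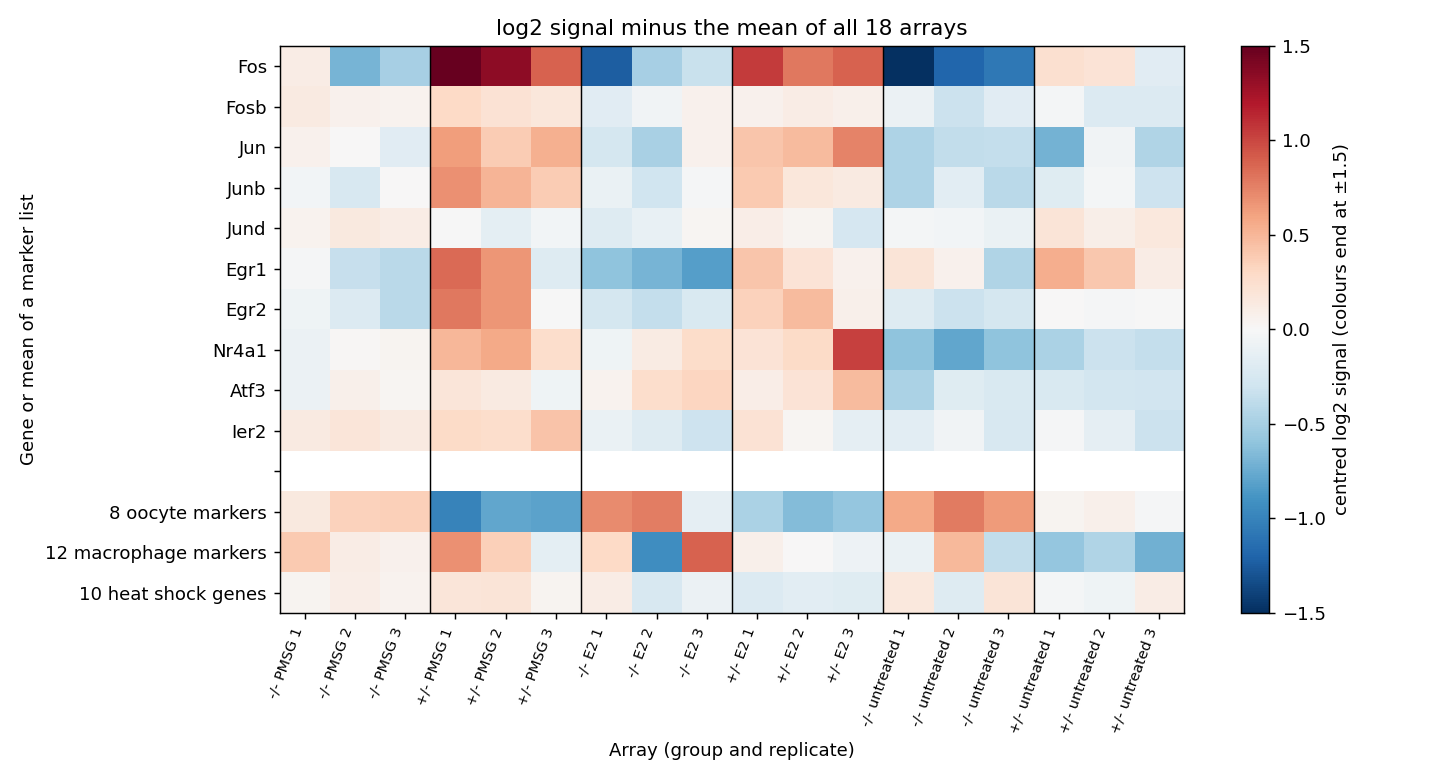
Log2 signal of the 10 factors, and mean of the oocyte, macrophage and heat shock lists, in each array, centred on the mean of all 18 arrays (colour in log2 units), with the groups marked off by lines. Fos is below its mean in 8 of 9 Pik3cd-/- arrays, while the oocyte markers are above theirs in 8 of 9.

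Among relatives of AP-1, 12 of 14 listed genes had a probe set and 11 were tested. Fosl2, which encodes the FOS relative FRA2, was higher after PMSG in both genotypes, by 1.00 ± 0.14 in Pik3cd-/- (adjusted p = 0.00153) and 1.18 ± 0.14 in Pik3cd+/- ovaries (adjusted p = 0.000234). Its mean signal was 1159 ± 74.0 in Pik3cd-/- and 1805 ± 329 in Pik3cd+/- ovaries after PMSG (SD, n = 3 each), a log2 difference of -0.62 ± 0.14 (adjusted p = 0.0230). The small MAF genes Maff and Mafk were higher after E2 in Pik3cd+/- ovaries, by 0.76 and 0.48, and lower in Pik3cd-/- than in Pik3cd+/- ovaries after E2, by -0.95 (adjusted p = 0.00177) and -0.55 (adjusted p = 0.00257). Atf7 was lower after PMSG in Pik3cd-/- ovaries (-0.47, adjusted p = 0.0245). These are all the calls of the 11 genes in the 9 comparisons.

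Of 9 relatives of the EGR, NR4A and IER genes, 8 were tested, and none was called in Pik3cd-/- ovaries with either hormone. After PMSG in Pik3cd+/- ovaries, Ier3 (1.03 ± 0.23, adjusted p = 0.00799), a survival gene, and Nab2 (0.36 ± 0.10, adjusted p = 0.0195), a corepressor of EGR proteins, were higher and Ier5l was lower (-0.56). Nab2 was also higher after E2 in Pik3cd+/- ovaries (0.46, adjusted p = 0.0283). Between the genotypes Ier5l alone was called, higher in Pik3cd-/- ovaries after PMSG (0.53, adjusted p = 0.0461).

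The list of 41 other early response genes, of which 38 were tested, had 4 called higher after PMSG in Pik3cd-/- and 11 in Pik3cd+/- ovaries, and 0 and 6 after E2, with none lower. In Pik3cd-/- ovaries the 4 were Myc, Cebpb, Ccn2 and Errfi1 (0.66 to 0.98). In Pik3cd+/- ovaries the smallest adjusted p after PMSG were those of Cebpb (0.99), a factor required for ovulation in mice, Errfi1 (1.21), an inhibitor of the EGF receptor, Socs3 (0.79), Ccn2 (1.27) and the MAP kinase phosphatase Dusp1 (1.07). After E2 they were those of Cebpb (0.76), Sik1 (0.55), Gadd45b (1.22), Pim1 (0.50) and Btg2 (0.69). Over all tested genes, 1.71% and 5.81% were called higher after PMSG and 0.00787% and 1.18% after E2. The list's medians were 0.17 and 0.26 after PMSG and 0.06 and 0.21 after E2, in Pik3cd-/- and Pik3cd+/- ovaries.

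Between the genotypes 5 of the 38 were lower in Pik3cd-/- ovaries after PMSG, 7 after E2 and 1 untreated, and Zfp36l1 was higher after E2 (0.31, adjusted p = 0.0470). Over all tested genes, 1.05% were called lower after PMSG, 12% after E2 and 1.34% untreated, so nothing is read from the count after E2. Ccn1 and Ccn2, matricellular proteins of the CCN family, were lower by -1.26 ± 0.20 and -0.99 ± 0.22 after PMSG and by -0.86 ± 0.20 and -1.27 ± 0.22 after E2. Mean Ccn1 signal was 169 ± 27.2 in Pik3cd-/- and 413 ± 39.4 in Pik3cd+/- ovaries after PMSG. The stress gene Gadd45b was lower by -1.23 ± 0.23 after PMSG (adjusted p = 0.0100) and -1.30 ± 0.23 after E2 (adjusted p = 0.00382), Gadd45a by -0.94 and -0.93, and Klf6 by -0.76 and -0.65. Myc was lower in untreated ovaries (-0.72 ± 0.10, adjusted p = 0.00788) and after E2 (-0.94 ± 0.10, adjusted p = 0.000367). The list's median difference was -0.16 after PMSG, -0.17 after E2 and 0.00 untreated.

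Of 24 listed upstream factors, the SRF, CREB and kinase genes that act on these promoters, 20 were tested. None was called in Pik3cd-/- ovaries with either hormone, nor between the genotypes after PMSG or untreated. After PMSG in Pik3cd+/- ovaries Prkar2b, a regulatory subunit of PKA, was higher (0.94 ± 0.25, adjusted p = 0.0182), and Crtc3 (-0.44) and Mrtfa (-0.35) were lower. After E2, Srf (-0.38, adjusted p = 0.0223), Map2k2 (-0.26, adjusted p = 0.0409) and Mapk7 (-0.35, adjusted p = 0.0490) were lower in Pik3cd-/- than in Pik3cd+/- ovaries. These 3 of 20 stand beside 12% of all tested genes called lower after E2, and nothing about upstream factors is read from them. An mRNA level does not show the activity of a kinase or of a factor that it phosphorylates.

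The genes whose pattern was most like that of the factors were taken as those with the highest Pearson correlation, over the 18 arrays, with the mean of the 10 centred log2 levels. They were Elmo1 (0.926), Ccn2 (0.922), Rassf4 (0.921), Tnfrsf12a (0.918), Asb4 (0.911), Pgd (0.906), Slc6a6 (0.899) and Kcnk1 (0.898). The most opposite, named after their values were seen, were Gtsf1 (-0.944), Itga6 (-0.943), Nlrp5 (-0.942), Dppa5a (-0.940) and Elobl (-0.939), and Nlrp5 is 1 of the 8 oocyte markers. The arrays share their 6 groups and the composition of the whole ovary, so these values describe likeness over the groups and have no p.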

How the data were processed

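Ovary RNA of 18 samples was measured on 1-colour arrays. For each array the authors deposited a linear intensity per probe set, from MAS5 (no version) per the submitters' processing notes. Its scaling is not given in the sources used here. Of 45101 probe sets, 34945 had exactly 1 gene symbol in the platform annotation and the brightest stood for its gene; 932 had more than 1, 9160 had none and 64 were controls, and these were not used. Values were tested as log2(signal + 8.58), the 10th percentile of all values, which understates changes of dim genes, where at least 1 group mean was above the median of 5.87 (12713 of 18193 genes). The 6 group means were the terms of a linear model (limma 3.58.1, R 4.3.3, moderated by eBayes with a trend; 12 residual and 3.66 prior degrees of freedom), two-sided, with Benjamini-Hochberg adjustment over the 12713 genes in each of 9 comparisons. Every adjusted p is from this model unless another fit is named. Fosb and the second probe sets come from a fit of all probe sets. The script was tested on simulated data. The number of arrays limits the precision.

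The factors, lists and tests were chosen with earlier results of these data known. All 10 factors were named whatever their result, up to 5 called genes per list and comparison by smallest adjusted p, and the 8 genes most like the factors in level and in deviation from group means. Between the genotypes after E2, the other early response genes Ccn1 and Zfp36l1 were named beyond these 5. Markers were fixed for granulosa, theca and steroidogenic, oocyte, macrophage, lymphocyte, neutrophil, blood, endothelial, smooth muscle, surface epithelium, oviduct, adipocyte and stroma cells. The replicate numbers come from the labels. Same-numbered arrays of the genotypes after PMSG deviated together over all genes (correlations 0.258, 0.251 and 0.295). The pairs checked were the genotypes in each state, and each treated group with the untreated group of its genotype. In no other pair checked were all 3 above 0.1, and other pairs, such as PMSG with E2 groups, were not checked. Alternatives were 2 other pseudocounts, 2 filters, quantile normalization, no trend, fewer groups, the replicate block, another probe set and each array left out. After seeing the data, the fit without 3 arrays and the block within the PMSG groups were added.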

Additional observations from a re-analysis of the deposited data

How the results depend on the processing

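Of 1355 values of single factors under the alternatives, 1280 kept their direction and side of the threshold or were uncalled in both, 63 lost a call, 12 gained one and 0 called values changed sign; 32 differed in sign among uncalled ones. The 1 call after PMSG in Pik3cd-/- ovaries became 0 with a pseudocount of 64, without the filter, with the probe set of highest variance, and without the 3 arrays that stood apart. The 7 calls after PMSG in Pik3cd+/- ovaries became 4 with the filter at the 70th percentile, which tests fewer dim genes, and 4 without the 3 arrays. The 3 calls after E2 in Pik3cd+/- ovaries became 1 and the 1 in untreated ovaries 0 without the 3 arrays. The 3 genotype calls after PMSG became 1 with the 70th percentile filter and 1 without the 3 arrays. They became 4 in the PMSG groups alone and 6 there with the replicate block. The 5 after E2 became 3 with that filter, 2 in the E2 groups alone and 3 without the 3 arrays. Except for the filter, the cause was not tested. Leaving out 1 array gave 0 to 0 calls for PMSG and 0 to 0 for E2 in Pik3cd-/- ovaries, 5 to 7 and 1 to 3 in Pik3cd+/- ovaries, 1 to 4, 2 to 6 and 0 to 1 between the genotypes after PMSG, after E2 and untreated, and 0 to 0 for both interactions. With the replicate block over all groups the counts were 1 and 6 for PMSG, 0 and 3 for E2 (Pik3cd-/- and Pik3cd+/-), 4, 4 and 1 between the genotypes, and 0 and 0 for the interactions. The labels do not say that a replicate number pairs arrays. Of the pairs of groups checked, only that of the PMSG groups had all 3 correlations of same-numbered arrays above 0.1. Over all genes, fitting only the compared groups moved the calls between the genotypes after E2 to 106 against 2141, after PMSG to 980 against 525 and untreated to 95 against 276, and for E2 in Pik3cd+/- ovaries to 778 against 206. Without the 3 arrays they were 707, 128, 2 and 94. For PMSG in Pik3cd+/- ovaries they were 618 against 2255. Quantile normalization gave 485 against 304 for PMSG in Pik3cd-/- ovaries and 425 against 276 untreated, and the 7 calls for E2 in Pik3cd-/- ovaries ranged from 0 to 16 under the settings that kept all 3 arrays of a group. Leaving out 1 array gave 86 to 386 calls over all genes for PMSG and 2 to 24 for E2 in Pik3cd-/- ovaries, 872 to 2410 and 33 to 110 in Pik3cd+/- ovaries, and 82 to 384, 646 to 2970 and 1 to 678 between the genotypes after PMSG, after E2 and untreated. The interactions had 0 calls over all genes without the 3 arrays, 0 to 71 with 1 array left out, and 0 to 3 under the block, quantile normalization, a pseudocount of 64 or fewer groups. Dim signals of Fosb, Egr2 and Atf3 limit what can be said of them.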

Other observations

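Over the 18 arrays, deviations from the group means correlated at 0.76 for Egr1 and Egr2, 0.70 for Nr4a1 and Atf3, 0.50 for Fos and Junb, 0.49 for Junb and Egr1, 0.45 for Fos and Egr2, 0.42 for Fos and Atf3 and 0.42 for Jun and Nr4a1. They correlated at -0.77 for Nr4a1 and Ier2, -0.57 for Jund and Nr4a1 and -0.50 for Atf3 and Ier2 (Pearson, descriptions with no p; the deviations within a group sum to 0, and the arrays share that constraint). Pik3cd+/- PMSG replicate 3 was the lowest of its group for Fos, Fosb, Junb, Egr1, Egr2, Nr4a1 and Atf3 and the highest for Ier2. The genes outside the set whose deviations were most like the mean of the factors were Ptprd (0.867), Hpgds (0.847), Pyroxd2 (0.839), Mprip (0.827), Cd24a (0.821), Galns (0.816), Ctss (0.812) and Slc9a9 (0.811).

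Of 5 theca and steroidogenic genes tested, 1 was lower after E2 in Pik3cd+/- ovaries, and 1 was higher in Pik3cd-/- than in Pik3cd+/- ovaries after E2. Of 7 granulosa markers, 1 was higher after PMSG in each genotype and 1 lower in Pik3cd+/- ovaries, and none was called between the genotypes. Smooth muscle had 2 of 6 higher after PMSG in Pik3cd+/- ovaries, and stroma 1 of 6 lower after PMSG and 2 after E2 in Pik3cd+/- ovaries, with 1 higher in Pik3cd-/- than in Pik3cd+/- ovaries after E2. Lymphocytes had 1 of 4 lower after PMSG in Pik3cd+/- ovaries, and oviduct 1 of 2 higher in Pik3cd-/- than in Pik3cd+/- ovaries after E2. Endothelial (6), surface epithelium (6), adipocyte (2) and blood (1) markers had 0 calls by limma, and no neutrophil marker passed the filter.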
